A study of Mus musculus with 15 samples.

Results

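Cytochrome P450 enzymes of families 1 to 4 oxidise drugs, steroids, bile acids and fatty acids, and the genes that encode them were followed across ectopic liver tissue grown in the kidney and the tissues it is set against. The members are all mouse genes whose symbol places them in these families, apart from Cyp1a2, Cyp2e1 and Cyp2f2, which the rule leaves out. Probes were given symbols through the RefSeq accession in the array annotation, and the brightest probe, by its mean over the 15 arrays, stood for each gene. Of 110 such symbols in the RefSeq table, 75 had a probe, among 20145 named genes on the array, and 67 of the 75 passed the filter on dim probes, among 15620 genes tested. The 8 members that did not pass, Cyp2b23, Cyp2c65, Cyp2c66, Cyp4a29, Cyp4a30b, Cyp4f37, Cyp4f41-ps and Cyp4x1, were not well above background on every array of any group. Cyp2a5, Cyp2c40 and Cyp3a41a had no probe by accession and are not described.

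Total RNA of 15 tissue samples of female FVB/N mice was hybridised to one-colour Agilent arrays, 1 array per sample. The neo-liver group (4 arrays) is liver-like tissue dissected out of the kidneys of host mice, and the host kidney (4 arrays) and host liver (4 arrays) come from mice of the same arm. These hosts were FVB/N wild-type mice that had received monocrotaline, an alkaloid toxic to hepatocytes and to the endothelium of the liver, as 2 doses of 70 mg/kg given 2 weeks apart, followed by 1000000 hepatocytes placed under the kidney capsule. The hepatocyte donors were FVB/N mice with a human alpha-1 antitrypsin transgene (hA1AT), so donor and host share the strain. Host tissues were sampled 250 to 300 days later at an age of 48 to 55 weeks, and all of them, host kidney included, carry the monocrotaline exposure. The control liver group (3 arrays) is normal liver of mice aged 20 weeks, so age, monocrotaline and transplantation cannot be told apart in any comparison with it. In tissue RNA, fewer cells of a type and less RNA per cell cannot be told apart either.

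P450 proteins sit in the endoplasmic reticulum and take electrons from the reductase encoded by Por. Their genes are switched on in hepatocytes by liver transcription factors such as HNF4A, and many are raised further by ligand-activated receptors: AHR for family 1, CAR and PXR for subfamilies 2b, 2c and 3a, and PPARA for subfamily 4a. In mice many of them also differ between the sexes through the pattern of growth hormone release, and most drug-metabolising members are strongest in hepatocytes around the central vein. Kidney tubule makes its own set, mainly fatty acid hydroxylases and epoxygenases of subfamilies 2j, 4a and 4b.

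The promoters of 57 of the 75 members were in the RefSeq table of build GRCm38.p6, each as 250 bases before and 50 after the gene's start. The letters CAAAGTCCA, a binding sequence of HNF4, searched on both strands, were in the promoters of 7 of these 57 members (12.3%), against 0.555% of the 27025 genes with a promoter in the table and 0.475% of its 32851 promoters. The 7 were Cyp2c65, Cyp2c67, Cyp2c68, Cyp2c70, Cyp3a11, Cyp3a16 and Cyp3a41b. Shown are 5 genes made in neo-liver and liver and 3 genes with another pattern, on the strand of the gene, with the match to CAAAGTCCA in capitals, or to GCGTG, the core of the AHR binding sequence, for Cyp1a1.
Cyp3a11 (chr5:145879805-145880104, minus strand): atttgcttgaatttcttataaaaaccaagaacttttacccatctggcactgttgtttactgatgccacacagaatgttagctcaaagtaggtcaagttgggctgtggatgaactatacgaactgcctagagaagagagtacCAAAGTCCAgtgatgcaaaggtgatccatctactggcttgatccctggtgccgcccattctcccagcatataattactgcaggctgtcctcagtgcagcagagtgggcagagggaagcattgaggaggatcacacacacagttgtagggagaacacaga
Cyp3a16 (chr5:145469674-145469973, minus strand): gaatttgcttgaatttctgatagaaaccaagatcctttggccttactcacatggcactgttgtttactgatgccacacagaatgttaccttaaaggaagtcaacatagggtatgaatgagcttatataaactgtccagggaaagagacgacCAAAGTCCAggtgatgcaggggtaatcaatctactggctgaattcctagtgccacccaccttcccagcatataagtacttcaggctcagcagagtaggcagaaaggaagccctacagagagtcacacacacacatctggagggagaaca
Cyp3a41b (chr5:145584681-145584980, minus strand): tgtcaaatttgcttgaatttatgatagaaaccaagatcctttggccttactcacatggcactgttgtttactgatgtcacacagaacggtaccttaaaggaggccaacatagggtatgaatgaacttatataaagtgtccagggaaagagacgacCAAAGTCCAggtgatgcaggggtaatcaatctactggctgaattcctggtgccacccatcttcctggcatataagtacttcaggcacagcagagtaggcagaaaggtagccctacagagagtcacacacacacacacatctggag
Cyp3a44 (chr5:145805825-145806124, minus strand): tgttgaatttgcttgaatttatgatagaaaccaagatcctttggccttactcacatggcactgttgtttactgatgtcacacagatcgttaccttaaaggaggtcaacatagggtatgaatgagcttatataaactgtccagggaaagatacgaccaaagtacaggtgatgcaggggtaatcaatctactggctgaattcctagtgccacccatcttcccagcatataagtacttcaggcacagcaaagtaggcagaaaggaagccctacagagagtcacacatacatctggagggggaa
Cyp2c70 (chr19:40187237-40187536, minus strand): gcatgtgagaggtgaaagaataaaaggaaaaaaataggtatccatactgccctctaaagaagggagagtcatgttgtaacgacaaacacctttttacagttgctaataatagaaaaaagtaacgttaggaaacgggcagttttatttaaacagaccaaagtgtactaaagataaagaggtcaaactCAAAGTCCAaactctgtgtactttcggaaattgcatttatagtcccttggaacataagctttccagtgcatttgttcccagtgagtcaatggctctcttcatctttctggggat
Cyp2j11 (chr4:96348631-96348930, minus strand): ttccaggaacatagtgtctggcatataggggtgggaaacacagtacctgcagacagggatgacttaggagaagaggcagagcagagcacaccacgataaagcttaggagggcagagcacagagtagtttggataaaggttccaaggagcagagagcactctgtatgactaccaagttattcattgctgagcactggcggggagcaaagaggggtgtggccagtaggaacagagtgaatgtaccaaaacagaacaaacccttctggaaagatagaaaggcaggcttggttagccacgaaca
Cyp2s1 (chr7:25816476-25816775, minus strand): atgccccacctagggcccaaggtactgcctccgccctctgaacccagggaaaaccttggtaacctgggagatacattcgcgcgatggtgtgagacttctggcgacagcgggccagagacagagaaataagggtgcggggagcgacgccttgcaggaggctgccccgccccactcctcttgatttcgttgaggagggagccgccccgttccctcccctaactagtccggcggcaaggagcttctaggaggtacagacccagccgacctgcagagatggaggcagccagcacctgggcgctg
Cyp1a1 (chr9:57697363-57697662, plus strand): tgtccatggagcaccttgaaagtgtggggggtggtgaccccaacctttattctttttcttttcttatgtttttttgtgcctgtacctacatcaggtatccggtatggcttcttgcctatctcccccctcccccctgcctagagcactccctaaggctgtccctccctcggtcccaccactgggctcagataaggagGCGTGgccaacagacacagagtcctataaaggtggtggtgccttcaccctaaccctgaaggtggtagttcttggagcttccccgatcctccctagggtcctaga
The match began 109 bases before the start in Cyp3a11, 99 in Cyp3a16, 95 in Cyp3a41b and 64 in Cyp2c70. Aligned end to end, the promoters of Cyp3a16 and Cyp3a44 were 93.4% identical, those of Cyp3a16 and Cyp3a41b 90.1% and those of Cyp3a11 and Cyp3a16 75.5%. Cyp3a44 has no exact match, and its nearest letters, beginning 95 bases before the start, differ by C7A, counted from the first base of the sequence searched. Of 36 members with a promoter that were higher in host liver than in host kidney, 6 held the HNF4 sequence. Of 7 that were lower 0 did, and of 8 not called 0 did. A link between the sequence and the tissue was not tested. GCGTG, in the promoter of Cyp1a1 54 bases before the start, was in promoters of 12 of the 57 members (21.1%) and of 35.2% of all genes in the table (32.4% of its promoters), searched on both strands. TATAAA, the TATA box, searched on both strands, was in promoters of 23 of the 57 members (40.4%), against 15.7% of all genes in the table (13.6% of its promoters). No match of one motif overlapped a capitalised match of another in the sequences shown.

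Levels are log2 of the processed signal minus the log2 of the array's 75th percentile, so 0 is that percentile and a step of 1 is a doubling. They compare arrays for 1 probe and not probes with each other. Differences come from 1 limma fit of all arrays, with their standard error (SE), and a gene was called where its p, adjusted by Benjamini-Hochberg across the 15620 genes tested, was under 0.05. The comparisons share arrays and are not independent of each other. Neo-liver and control liver arrays lay on 1 slide, host kidney arrays on another and host liver arrays on a pair of others. In comparisons with host kidney or host liver the group therefore cannot be told apart from the slide. Kidney RNA was measurable in the neo-liver samples: the median signal of 46 kidney epithelium markers was 16.37%, 41.59%, 17.88% and 29.86% of the host kidney signal in neo-livers 1 to 4, against 0.0078% to 0.0241% in host livers (exact permutation test over sign changes, two-sided p = 0.125, the smallest that 4 pairs allow). The median over 15 hepatocyte markers was 95.15%, 53.28%, 61.29% and 64.69% of the control liver level in neo-livers 1 to 4. It was between 96.24% and 142.4% in host livers, and at most 0.1381% in host kidneys. Close paralogs such as Cyp2a4 and Cyp2a5, Cyp4a12a and Cyp4a12b, or Cyp4a10, Cyp4a31 and Cyp4a32, can share signal on these probes. The 75th percentile signal was 416 to 676 on neo-liver arrays, 561 to 875 on host kidney arrays, 287 to 448 on host liver arrays and 390 to 424 on control liver arrays.

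Most members were higher in neo-liver than in the host kidney. Of the 67 members, 45 stood higher in neo-liver than in host kidney, a call made for 23.2% of all genes, 8 were lower (29.4% of all genes) and 14 were not called. The median difference over the members was 3.19, against -0.09 over all genes. Host liver gave 45 higher (39.5% of all genes), 10 lower (31.2%) and 12 not called against host kidney, with a median of 3.62. All 11 tested members of subfamily 2c, all 10 of 2d, all 8 of 3a and all 3 of 2a stood higher in neo-liver than in host kidney, with 3 of 4 of 2b and 7 of 8 of 4f. Of the 6 members of 4a, 0 were.

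**Figure D1:**
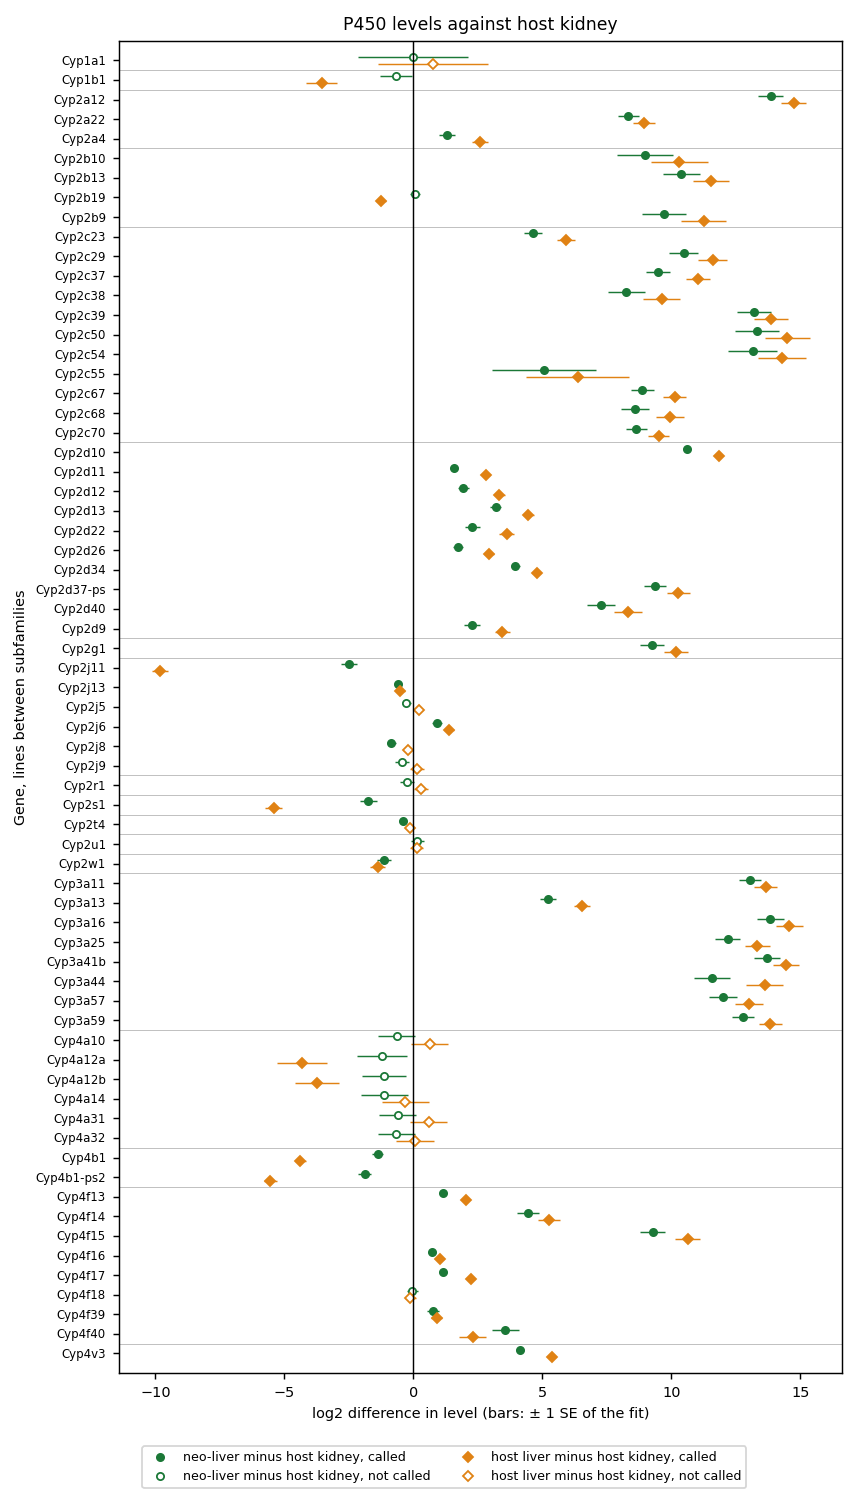
Difference in log2 level from host kidney for each of the 67 tested members, for neo-liver (circles) and host liver (diamonds), with bars of ± 1 SE of the limma fit, filled where called at an adjusted p under 0.05. Members of 2c and 3a lie far to the right in both livers, those of 4a near 0 or to the left, and Cyp2j11, Cyp2s1, Cyp4b1 and Cyp4b1-ps2 left of 0.

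Subfamily 3a holds the main drug oxidases of liver. Cyp3a11, the PXR target that corresponds to human CYP3A4, had levels of 8.50, 8.62, 8.94 and 8.23 in neo-livers, against -5.46, -2.86, -4.66 and -4.90 in host kidneys, 8.67, 9.63, 9.65 and 8.78 in host livers and 8.97, 9.02 and 9.05 in control livers. Every neo-liver lay over 10 log2 units above every host kidney, and the difference was 13.04 ± 0.44 (SE, adjusted p = 2.06e-11), with 3 of 4 host kidneys above background. Cyp3a16, a form that predominates in fetal and female liver, stood at 7.94, 7.61, 7.73 and 7.94 in neo-livers and -7.65, -4.07, -6.45 and -5.99 in host kidneys, where 1 of 4 was above background, a difference of 13.84 ± 0.51 (adjusted p = 5.91e-11). Host kidney 2 was the brightest of the kidneys for both genes, and on that array 31 of 36 liver members were above background, against 20, 23 and 21 on the other host kidney arrays. The 36 liver members are those at least 3 log2 units higher in host liver than in host kidney, chosen on these same arrays. Cyp3a25 was not well above background in any host kidney and was at least 2240-fold higher in neo-liver, with levels of 4.78, 6.01, 6.48 and 4.62. Cyp3a57 was at least 1689-fold higher on the same footing. Such bounds set the brighter group against the lowest signal called above background. Cyp3a13, the form of gut epithelium, had 2.70, 1.91, 2.47 and 1.46 in neo-livers, against -2.70, -3.02, -3.11 and -3.52 in host kidneys, and differed least within the subfamily (5.22 ± 0.32).

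Subfamily 2c includes epoxygenases and, with Cyp2c70, the enzyme that makes muricholic acids in mouse bile. Cyp2c70 had levels of 7.12, 6.99, 5.47 and 6.74 in neo-livers, against -2.17, -1.91, -2.20 and -2.0 in host kidneys (8.65 ± 0.41, adjusted p = 8.13e-10). Neo-liver 3 was the lowest of the neo-livers, as host liver 3 was of the host livers. Cyp2c29, an epoxygenase induced through CAR, had 6.57, 8.56, 8.98 and 6.86 in neo-livers and -2.96, -2.04, -2.92 and -3.0 in host kidneys, with no overlap and a difference of 10.47 ± 0.57. Cyp2c39 had 5.66, 7.11, 7.5 and 5.77 in neo-livers and -7.69, -4.53, -7.87 and -6.70 in host kidneys, of which 1 of 4 was above background (13.21 ± 0.67). For Cyp2a12, which hydroxylates bile acids in mice, 1 of 4 host kidneys was above background, so the size of its difference rests on dim values. Its levels were 7.72, 7.39, 7.71 and 7.43 in neo-livers and -7.60, -4.29, -6.37 and -6.92 in host kidneys (13.86 ± 0.49, adjusted p = 3.66e-11). Cyp2a4, a steroid 15-alpha-hydroxylase that kidney also makes, differed by only 1.29 ± 0.31, with 8.33, 7.99, 8.12 and 6.81 in neo-livers and 7.12, 6.39, 6.10 and 6.46 in host kidneys, where the lowest neo-liver was below the highest kidney.

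Subfamily 2b responds to CAR. Cyp2b10, its classical target, had 4.64, 8.61, 9.24 and 5.01 in neo-livers, against -2.51, -1.93, -0.88 and -3.05 in host kidneys (8.97 ± 1.1, adjusted p = 1.55e-05). Cyp2b13, a form of female liver, had 3.17, 5.46, 5.5 and 3.78 in neo-livers and -5.71, -5.30, -5.89 and -6.76 in host kidneys, 1 of 4 above background (10.39 ± 0.71). Cyp2b9, also a female form, was at least 343.7-fold higher in neo-liver and dim in every host kidney. Cyp2b19, an epoxygenase of skin keratinocytes, was above background in 2 of 4 neo-livers and did not differ by the test (0.06 ± 0.21, adjusted p = 0.825). The 4 neo-liver values of Cyp2b10 fell in a high pair, numbers 2 and 3, and a low pair, numbers 1 and 4.

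Subfamily 2d, related to human CYP2D6, had a median difference of 2.74 from host kidney. Cyp2d10 had 6.92, 6.88, 7.25 and 6.83 in neo-livers, against -3.83, -3.29, -3.76 and -3.63 in host kidneys, with the smallest adjusted p of any member in that comparison (10.60 ± 0.14, adjusted p = 2.5e-15). Cyp2d26 had 8.17, 7.89, 8.23 and 8.37 in neo-livers and 6.03, 6.73, 6.94 and 6.05 in host kidneys (1.73 ± 0.19). In 2d, 7 of the 10 members differed by under 4 log2 units. Cyp2d34 has 2 kept probes, and the dimmer one gave the opposite sign (-0.96, against 3.95 for the one used). Cyp2g1, known from olfactory mucosa, was at least 175-fold higher in neo-liver, at 0.62, 2.83, 2.21 and 1.36. In subfamily 4f, Cyp4f14, the leukotriene B4 hydroxylase of liver, had 5.41, 5.63, 4.36 and 5.52 in neo-livers and 0.54, 1.04, 0.07 and 1.57 in host kidneys (4.43 ± 0.43). Cyp4v3, the counterpart of the human fatty acid hydroxylase CYP4V2, had 4.15, 4.46, 4.57 and 4.86 in neo-livers and 0.23, 0.31, 0.41 and 0.48 in host kidneys (4.15 ± 0.16). Cyp4f18, the form of neutrophils, was level across the tissues, between -0.63 and -0.01 in neo-livers and between -0.49 and -0.26 in host kidneys.

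Of the 10 members that were lower in host liver than in host kidney, Cyp2j11, Cyp2s1, Cyp4b1, Cyp4b1-ps2, Cyp4a12a, Cyp4a12b and Cyp1b1 had neo-liver means between those of the host organs. The mean of Cyp2j13 lay below both organs and that of Cyp2b19 above both, and Cyp2w1 was dim in neo-liver. On its dimmer kept probe, Cyp2j13 in neo-liver differed by -0.72 from host kidney and 2.09 from host liver, and so lay between the organs. That probe gave -0.05 against control liver, where the one used gave -1.03. Cyp2j11, a kidney member of the epoxygenase subfamily 2j, had 0.66, 2.06, 0.76 and 1.76 in neo-livers, against 3.74, 3.96, 3.77 and 3.74 in host kidneys, -5.85, -5.36, -6.6 and -6.31 in host livers and -6.17, -6.62 and -6.66 in control livers. It was not well above background in any host or control liver. The neo-livers lay below every kidney (-2.49 ± 0.32, adjusted p = 2.18e-05) and were at least 50.71-fold above control liver and at least 38.95-fold above host liver. Cyp2s1, an AHR-responsive form of epithelia, had 0.49, 1.71, 0.86 and 1.14 in neo-livers, 2.52, 2.99, 3.08 and 2.61 in host kidneys, -3.72, -2.20, -2.07 and -2.46 in host livers and -3.71, -3.77 and -4.03 in control livers. It differed by -1.75 ± 0.33 from host kidney, 3.66 ± 0.33 from host liver and 4.89 ± 0.36 from control liver, all called. Cyp4b1, a fatty acid hydroxylase of kidney and lung, had 3.90, 4.66, 3.94 and 4.82 in neo-livers, 5.64, 5.41, 6.00 and 5.81 in host kidneys, 1.70, 1.36, 1.17 and 1.05 in host livers and 1.46, 1.46 and 1.42 in control livers, and its differences were -1.39 ± 0.22, 3.01 ± 0.22 and 2.88 ± 0.23 from host kidney, host liver and control liver. For these 3 genes no neo-liver value overlapped any other tissue.

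**Figure D2:**
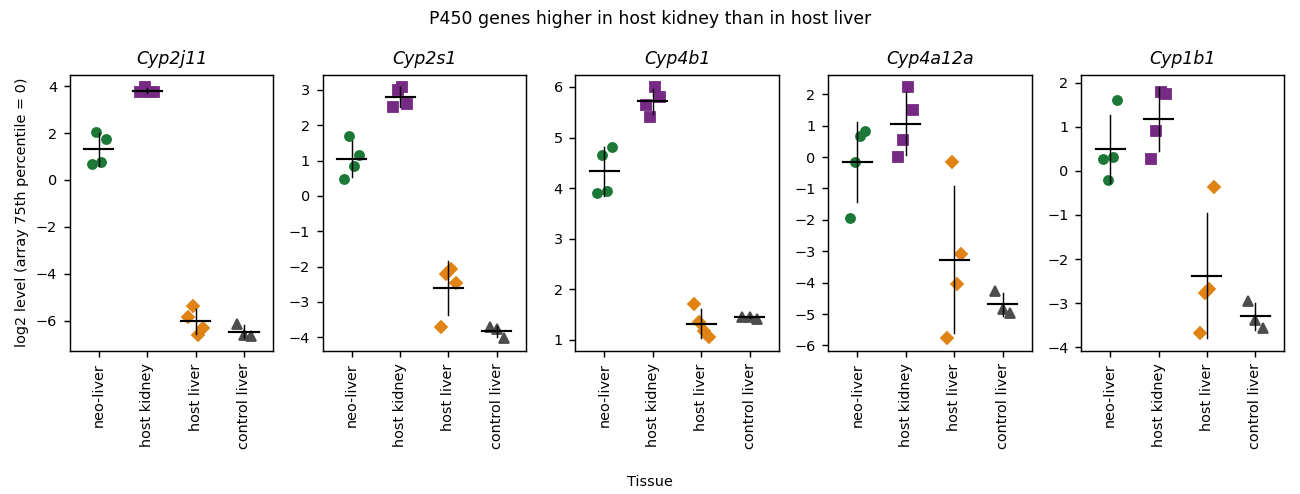
Log2 level of 5 members on each array, by tissue, where the horizontal bar is the group mean and the vertical line ± 1 SD (n = 4, and n = 3 for control liver). Neo-livers of Cyp2j11, Cyp2s1 and Cyp4b1 sit between the kidneys and both livers, while those of Cyp4a12a and Cyp1b1 overlap the kidneys, and 1 host liver of Cyp4a12a reaches the neo-livers.

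Set beside the kidney marker share of each sample (16.37%, 41.59%, 17.88% and 29.86%), neo-livers 1 to 4 had 11.35%, 29.83%, 12.12% and 24.18% of the mean host kidney level of Cyp2j11. They had 20.19%, 46.86%, 26% and 31.73% of that of Cyp2s1, and 28.51%, 48.09%, 29.12% and 53.79% of that of Cyp4b1. The samples with the larger kidney share, 2 and 4, were the higher ones for all 3. When that share of the mean host kidney signal was subtracted from each neo-liver, Cyp2j11 was left at the floor, the lowest signal called above background, in 4 of 4 neo-livers, while Cyp2s1 and Cyp4b1 still differed from control liver, by 1.89 ± 0.48 and 1.17 ± 0.33. Apart from Cyp2j11 at that floor, 2 of the 8 members called higher against control liver were then called. What is left depends on the markers that set the share. By proximal tubule markers alone it was 15.41%, 49.33%, 21.33% and 36.66% in neo-livers 1 to 4. By markers of loop, distal tubule and collecting duct it was 14.92%, 39.86%, 15.22% and 25.36%. The subtraction used the share over all 46 markers and was not repeated with either. Cyp4a12a, the androgen-dependent fatty acid hydroxylase of male kidney, had -1.95, -0.16, 0.67 and 0.84 in neo-livers, -0.01, 0.54, 2.23 and 1.49 in host kidneys, -5.77, -0.17, -4.03 and -3.09 in host livers and -4.28, -4.84 and -4.97 in control livers, where only 1 of 3 was above background. Its neo-livers reached 12.35% to 85.79% of the kidney mean, with the highest values in samples 3 and 4. Host liver 2 alone matched the neo-livers, and Cyp4a12b gave the same picture on a probe that may share its signal. The difference from control liver was 4.54 ± 1.04 (adjusted p = 0.00274), and 2.44 ± 1.36 with the kidney share subtracted, which left 2 of 4 neo-livers at the floor and was not called.

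Several other members were measured in both organs. Cyp2j5, an epoxygenase of liver and kidney, had 0.44, 0.68, 0.04 and 0.17 in neo-livers and 0.59, 0.86, 0.37 and 0.60 in host kidneys, which overlapped and were not called apart (-0.27 ± 0.18). Cyp2j13 was lower in neo-livers (1.38, 2.11, 1.59 and 1.72) than in host kidneys (2.15, 2.48, 2.21 and 2.40), by a difference of -0.61 ± 0.16. Cyp2r1, the vitamin D 25-hydroxylase, overlapped between neo-livers (3.06, 3.10, 2.65 and 2.26) and host kidneys (3.77, 3.02, 2.60 and 2.71) and was not called, but its other kept probe gave a difference of 3.58. The 4 PPARA targets Cyp4a10, Cyp4a14, Cyp4a31 and Cyp4a32 were bright in both organs, differed by -1.13 to -0.61 and were not called, apart from Cyp4a14 with mouse number as a block (adjusted p = 0.0278 by limma). Cyp2w1, Cyp2j8, Cyp2t4 and Cyp4b1-ps2 were called lower, and Cyp2u1 and Cyp2j9 were not called. Cyp2j8 had 3.5, 4.37, 3.76 and 4.03 in neo-livers, 4.62, 4.95, 4.75 and 4.76 in host kidneys, 4.36, 4.91, 4.64 and 4.27 in host livers and 5.01, 4.90 and 4.81 in control livers, so both host kidneys and control livers lay above every neo-liver. Cyp2w1 was dim in every neo-liver, host liver and control liver and at least 1.847-fold lower in neo-liver than in host kidney. The pseudogene Cyp4b1-ps2 had -2.12, -1.24, -2.33 and -1.36 in neo-livers, -0.09, -0.14, 0.38 and 0.36 in host kidneys, -5.32, -5.53, -5.65 and -5.15 in host livers and -4.10, -4.30 and -4.91 in control livers, with no overlap of neo-liver with any of them, as for Cyp4b1.

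Against control liver, neo-liver carried lower levels of many of the same liver members. Of the 67, 30 were lower (29.7% of all genes), 8 were higher (20.4%) and 29 were not called, and the median difference was -1.0, against -0.15 over all genes. In a plain mixture at the kidney shares given above, a transcript made by hepatocytes alone would differ by a mean of -0.46. With the share subtracted and the remainder rescaled to a whole sample, 20 members were lower (28.9% of all genes) and the median was -0.71. The 8 higher members were Cyp2j11, Cyp2s1, Cyp4a12a, Cyp4a12b, Cyp1b1, Cyp4b1, Cyp4b1-ps2 and Cyp4f16. These comparisons were made within 1 slide.

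The lower levels were most regular in subfamilies 2d and 4f, where 8 of 10 and 6 of 8 members were lower, with median differences of -1.25 and -1.17. Cyp2d22, the mouse form closest to CYP2D6, had 3.21, 4.04, 4.36 and 4.14 in neo-livers, against 5.71, 5.64 and 5.67 in control livers, with no overlap (-1.73 ± 0.32, adjusted p = 0.000633). Cyp2d26 had 8.17, 7.89, 8.23 and 8.37 in neo-livers and 9.27, 9.41 and 9.35 in control livers (-1.18 ± 0.21), and Cyp2d10 differed by -0.91 ± 0.15. Cyp2d12 had 5.11, 5.60, 5.91 and 5.79 in neo-livers and 6.98, 7.02 and 7.03 in control livers (-1.41 ± 0.23, adjusted p = 0.000202), and its host livers, at 6.6, 7.18, 7.08 and 7.10, also lay above every neo-liver. Cyp2d9, a steroid 16-alpha-hydroxylase of male liver, had 2.32, 3.08, 3.43 and 2.83 in neo-livers and 4.52, 4.28 and 4.46 in control livers, with no overlap (-1.51 ± 0.32). Cyp4f14 had 5.41, 5.63, 4.36 and 5.52 in neo-livers and 7.41, 7.34 and 7.00 in control livers (-2.02 ± 0.46, adjusted p = 0.00257), and Cyp4v3 had 4.15, 4.46, 4.57 and 4.86 and 6.25, 6.10 and 6.15 in the same groups (-1.66 ± 0.17). Cyp4f13 was tighter between arrays, with 2.43, 2.54, 2.59 and 2.84 in neo-livers, 1.38, 1.5, 1.38 and 1.58 in host kidneys, 3.43, 3.47, 3.46 and 3.67 in host livers and 3.84, 3.70 and 3.78 in control livers. No neo-liver value of Cyp4f13 overlapped another tissue, and it was lower than in control liver by a difference of -1.17 ± 0.11 (adjusted p = 2.35e-06). Cyp4f16 ran the other way, with -0.86, -0.40, -0.25 and -0.21 in neo-livers and -0.84, -0.68 and -1.12 in control livers, which overlapped (0.45 ± 0.17, adjusted p = 0.0404). Among the smaller subfamilies, Cyp2j5 had 0.44, 0.68, 0.04 and 0.17 in neo-livers and 2.18, 1.99 and 1.99 in control livers (-1.72 ± 0.19, adjusted p = 1.04e-05). Cyp2r1 fell as well, with 3.92, 3.82 and 3.81 in control livers (-1.08 ± 0.29), as did 4 of 6 members of 2j.

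Subfamilies 2c, 3a and 2b were called less evenly, with 4 of 11, 2 of 8 and 2 of 4 members lower, although their median differences were -1.0, -0.95 and -1.55. Cyp2c68 had 6.2, 5.29, 4.52 and 7.21 in neo-livers and 7.79, 7.57 and 7.02 in control livers (-1.66 ± 0.58, adjusted p = 0.0288), and Cyp2c70 differed by -1.36 ± 0.44. Cyp3a25 had 6.90, 6.85 and 7.01 in control livers and was lower in neo-liver (-1.45 ± 0.53). Cyp2b13 had 7.12, 7.14 and 6.80 in control livers, above every neo-liver (-2.55 ± 0.76, adjusted p = 0.0135). Cyp3a11 and Cyp2a12 were not called, at -0.44 ± 0.47 and -0.78 ± 0.53, although every neo-liver lay below every control liver for both. The SE pools the spread of all 4 tissues. Host kidneys had an SD of 1.13 for Cyp3a11 and 1.43 for Cyp2a12, while neo-livers had 0.30 and 0.18. With neo-liver and control liver fitted alone, Cyp2a12 was called lower (-0.78 ± 0.13, adjusted p = 0.00268 by limma) and Cyp3a11 was not called (-0.44 ± 0.17, adjusted p = 0.0682). Cyp2c55 differed by 2.47 ± 2.17 and was not called.

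**Figure D3:**
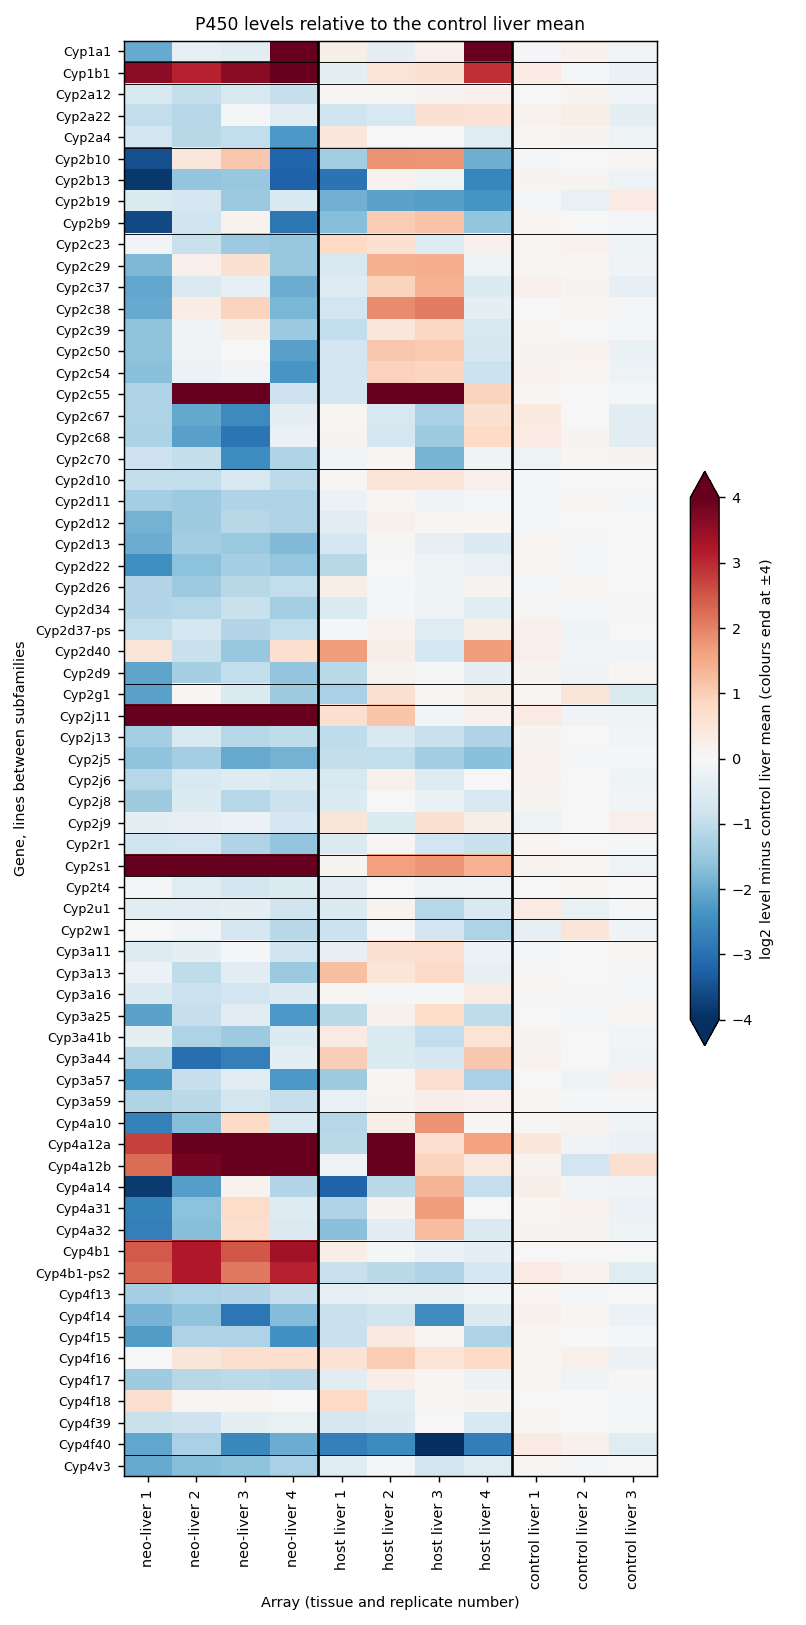
Log2 level of each tested member (rows, by subfamily) on each neo-liver, host liver and control liver array, minus the mean of the 3 control livers, with colours ending at ±4. Neo-livers are mostly blue, members also made by kidney (Cyp2j11, Cyp2s1, Cyp4b1) are deep red in neo-livers, and numbers 2 and 3 of both neo-liver and host liver are lighter or red for most of 2b and much of 2c.

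Neo-liver and host liver were taken from mice of the same arm, and their replicate numbers matched: in every pair of host tissues the residuals over all genes were best correlated with those of their own number, for 4 of 4 numbers (r across genes 0.18 to 0.58). The numbers are therefore read as mice. In the fit without this pairing 20 of the 67 members were lower in neo-liver than in host liver (31% of all genes), 8 were higher (17.1%) and 39 were not called. The count of lower members was 11 with quantile normalization (16.5% of all genes) and 31 with median centring (44.6% of all genes). The share over all genes thus moved in the same direction as the count of members. With mouse number as a replicate block 32 were lower (36.8% of all genes) and 9 were higher (18.9%). Within the 4 numbers, 47 of the 67 were lower in neo-liver every time, against 46.6% of all genes, and 8 were higher every time, against 21.9%.

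**Figure D4:**
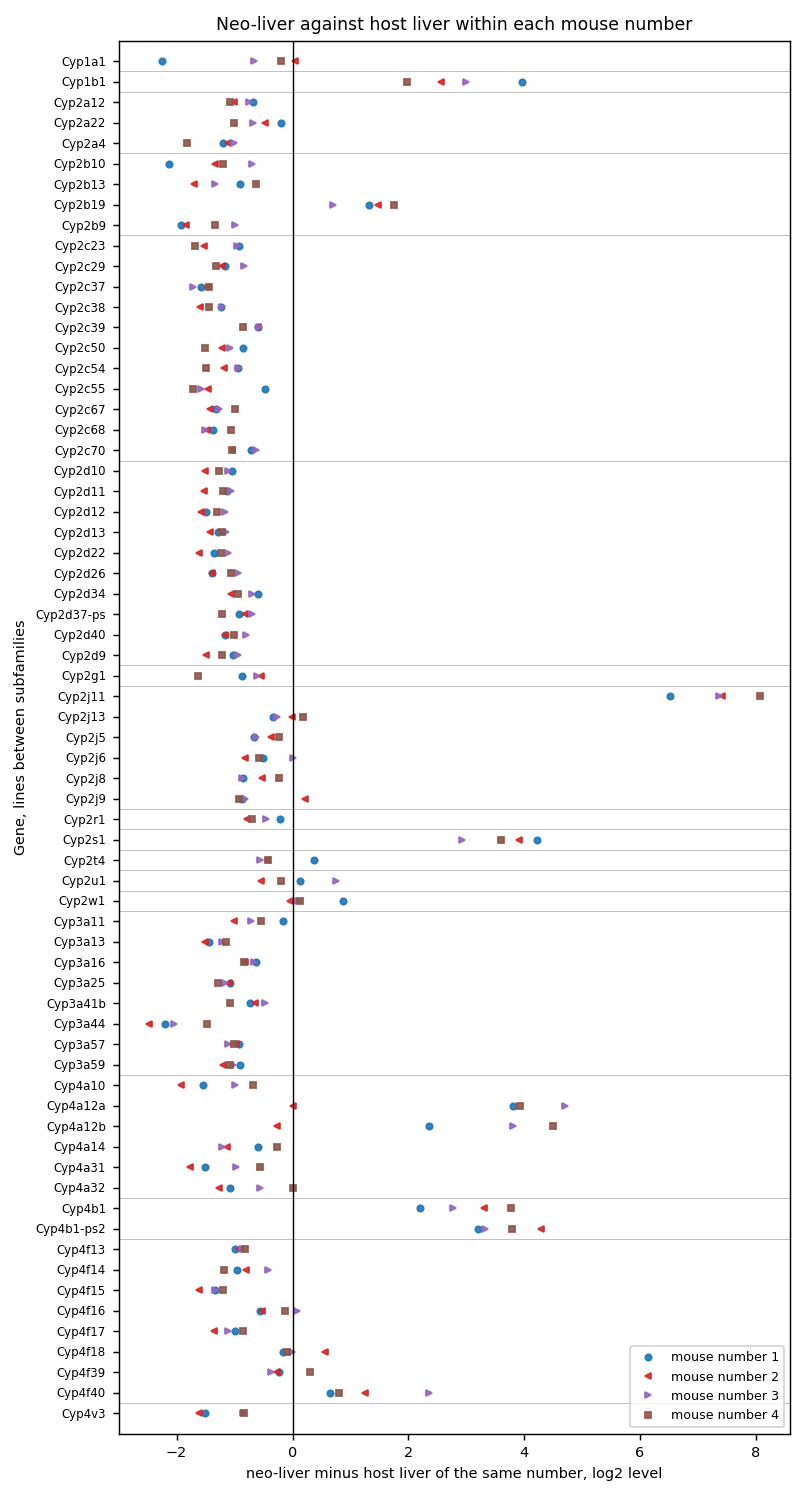
Level in neo-liver minus level in host liver of the same number, for each tested member and each of the 4 mouse numbers, in log2 units. Points of most members of 2c, 2d and 3a lie together near -1, whereas Cyp1b1, Cyp2j11, Cyp2s1, Cyp4b1 and Cyp4b1-ps2 lie right of 0 in all 4 numbers.

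The spread of the within-mouse differences depended on the gene. Cyp2b10 differed by -2.13 to -0.70 in the 4 mice and Cyp1a1 by -2.25 to 0.04, and neither was called with the block. Cyp4a12a differed by 0.0061 to 4.70. Cyp3a57 differed by -1.12 to -0.93 in the 4 mice, and its difference of -1.01 was called with the block (adjusted p = 0.00179 by limma) and not without it (adjusted p = 0.146). Cyp3a25 differed by -1.29 to -1.07 in the 4 mice (-1.16, adjusted p = 0.013 with the block and 0.0676 without). Cyp3a44, a female-specific form, had 4.90, 3.10, 3.40 and 5.72 in neo-livers and 7.10, 5.58, 5.44 and 7.21 in host livers, the largest fall of any member in that comparison (-2.05 ± 0.71, adjusted p = 0.0287). Cyp3a13 had 2.70, 1.91, 2.47 and 1.46 in neo-livers and 4.14, 3.42, 3.69 and 2.60 in host livers (-1.32 ± 0.32). Of subfamily 2d, 8 of 10 members were lower, among them Cyp2d10, with 6.92, 6.88, 7.25 and 6.83 in neo-livers and 7.96, 8.39, 8.36 and 8.10 in host livers (-1.23 ± 0.14, adjusted p = 1.61e-05). The 8 higher members included Cyp2s1, Cyp4b1, Cyp2j11 and Cyp1b1, and Cyp2b19, which was dim in every host liver and is given no fold. Cyp4f40 was higher in neo-liver in 4 of 4 mice (-3.45, -2.67, -3.95 and -3.35, against -4.11, -3.93, -6.31 and -4.15 in host livers), and was called with the block only (1.27, adjusted p = 0.0276, against 0.0645).

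Few members were called between host liver and control liver, although some group means lay far apart. Cyp2c55 differed by 3.78 with an SD of 4.37 in host livers, and Cyp1a1 by 1.90 with an SD of 3.74. Neither was called. Of the 67 members 5 were lower (11.2% of all genes), 2 were higher (13.3%) and 60 were not called, with a median difference of -0.09, against 0.07 over all genes. Cyp4f40 had -4.11, -3.93, -6.31 and -4.15 in host livers, 3 of them not above background, against -1.07, -1.22 and -1.86 in control livers (-3.24 ± 0.57, adjusted p = 0.00179). Cyp2j5 had 1.11, 1.06, 0.67 and 0.40 in host livers and 2.18, 1.99 and 1.99 in control livers, with no overlap (-1.25 ± 0.19, adjusted p = 0.000775). Cyp2j13 had 1.72, 2.12, 1.85 and 1.54 and 2.86, 2.71 and 2.63 in the same groups (-0.92 ± 0.17). Cyp2b19 and the pseudogene Cyp4b1-ps2 were also lower, and Cyp2s1 and Cyp4f16 were higher (1.22 ± 0.36 and 0.74 ± 0.17). Without host liver 2 the count of lower members was 8.

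Levels of several members ranged widely between the host mice. The SD over arrays exceeded 1 log2 unit for 18 of the 67 members in neo-liver, against 3.17% of all genes. In host liver it did so for 18 members (5.38% of all genes) and in control liver for 0 (1.17% of all genes). It exceeded 1 for 13 members in host kidney (1.68% of all genes), several of which are dim there. The deviations of the members from their group mean followed the mouse number: neo-liver and host liver of the same number correlated with r of 0.71 to 0.93 over the 67 members, while pairs of different numbers gave -0.79 to 0.58. These are descriptions over genes that share arrays.

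**Figure D5:**
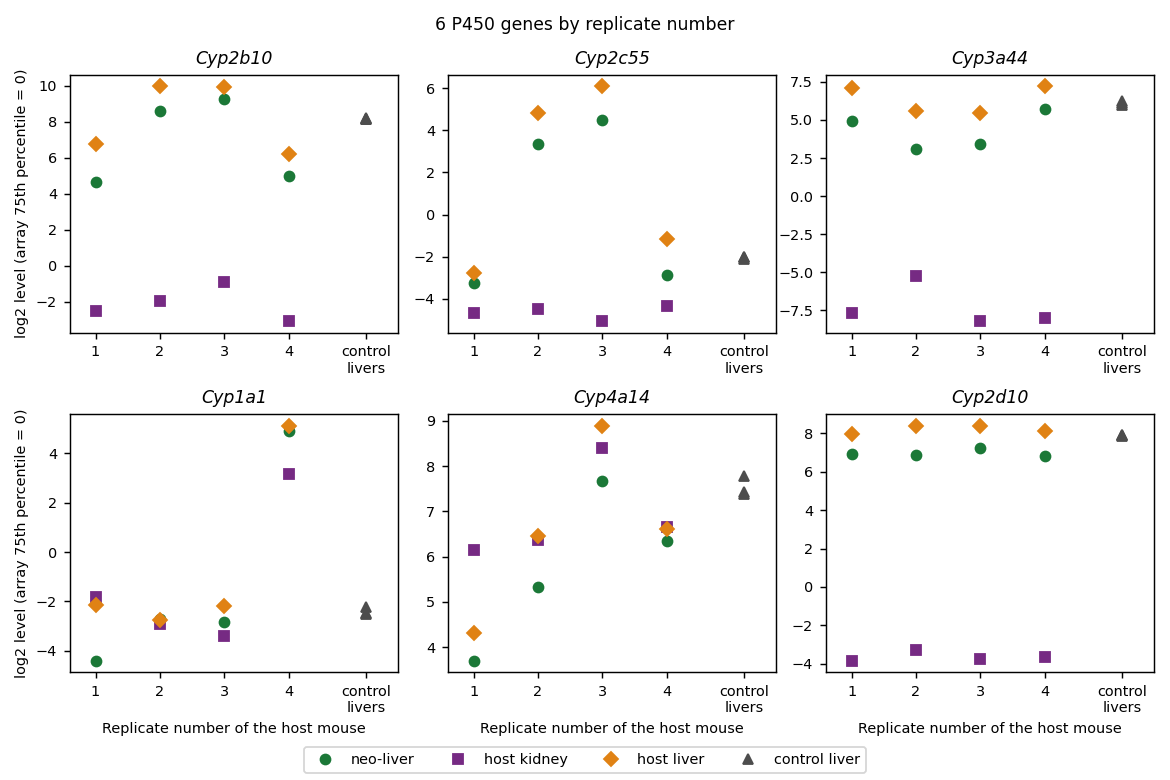
Log2 level of 6 members by replicate number of the host mouse, in neo-liver (circles), host kidney (squares) and host liver (diamonds), with the 3 control livers (triangles) at the right. Numbers 2 and 3 are the highest in both neo-liver and host liver for Cyp2b10 and Cyp2c55, and numbers 1 and 4 for Cyp3a44. All 3 host tissues are highest in number 4 for Cyp1a1 and in number 3 for Cyp4a14. Cyp2d10 is even within each tissue.

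The CAR and PXR targets split the mice into pairs. Cyp2b10 had 4.64, 8.61, 9.24 and 5.01 in neo-livers 1 to 4 and 6.77, 9.96, 9.94 and 6.21 in host livers 1 to 4, against 8.12, 8.16 and 8.22 in control livers. Numbers 2 and 3 were above the control livers in both tissues and numbers 1 and 4 below them. Cyp2c55, which CAR and PXR ligands raise in mouse liver, had -3.27, 3.36, 4.51 and -2.87 in neo-livers and -2.79, 4.82, 6.09 and -1.15 in host livers, against -2.0, -2.01 and -2.11 in control livers. Mice 2 and 3 were over 5 log2 units above the control livers in both tissues. Cyp2c55 in host kidneys stayed between -5.05 and -4.32. Cyp2c29 in host livers was 7.73, 9.79, 9.81 and 8.17, and Cyp2b9 was 0.91, 3.72, 4.66 and 1.62 in neo-livers and 2.83, 5.55, 5.65 and 2.96 in host livers, with the same pair high. In all, numbers 2 and 3 were the highest pair in both neo-liver and host liver for 18 of 67 members (26.9%), against 12.3% of all genes. The 18 included 8 of the 9 members tested of the CAR and PXR list, with Cyp3a13 the exception, and also Cyp2c38, Cyp2c39, Cyp2c50, Cyp2c54, Cyp2d9, Cyp2d13, Cyp2d34, Cyp3a57, Cyp4f15 and Cyp4f17. Host liver slides held numbers 1 and 2 and numbers 3 and 4, and the neo-livers lay on 1 slide.

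The opposite order was seen for 6 members, with numbers 1 and 4 highest in both tissues: Cyp2c67, Cyp2c68, Cyp2d40, Cyp3a16, Cyp3a41b and Cyp3a44 (8.96% of members and 9.69% of all genes). Among them, Cyp2c68 stood at 6.2, 5.29, 4.52 and 7.21 in neo-livers and 7.57, 6.76, 6.04 and 8.27 in host livers. For Cyp3a16 the 4 values spanned under 0.5 log2 units in each tissue. Of the female-biased list, Cyp2b9, Cyp2b10, Cyp2b13, Cyp2c38 and Cyp2c39 were highest in mice 2 and 3, and Cyp3a16, Cyp3a41b and Cyp3a44 in mice 1 and 4, so its members did not share 1 order of mice. Over all mice, 9 of 9 tested female-biased members stood higher in neo-liver than in host kidney (23.2% of all genes), and 2 of 9 were lower than in control liver (29.7% of all genes), a share no larger than that over all genes.

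The AHR target Cyp1a1 stood out in 1 mouse. It had -4.40, -2.71, -2.85 and 4.92 in neo-livers, -1.82, -2.90, -3.39 and 3.14 in host kidneys, -2.15, -2.75, -2.18 and 5.11 in host livers and -2.46, -2.21 and -2.51 in control livers. All 3 tissues of mouse 4 were over 4.5 log2 units above every other array of their own tissue, and group differences were not called, with 1.14 ± 2.31 for neo-liver against control liver. Cyp1b1, an AHR target made mostly outside the liver, had 0.28, -0.21, 0.31 and 1.61 in neo-livers, 0.27, 0.90, 1.78 and 1.75 in host kidneys, -3.69, -2.78, -2.68 and -0.37 in host livers and -2.96, -3.38 and -3.56 in control livers. Mouse 4 was the highest in neo-liver and host liver, and in host kidney it was level with mouse 3. Cyp1b1 was higher in neo-liver than in control liver by 3.8 ± 0.65 (adjusted p = 0.000344) and than in host liver by 2.88 ± 0.60, and was not called against host kidney (-0.68 ± 0.60). With the kidney share subtracted the difference from control liver was 2.23 ± 1.11 and not called. Cyp2s1, the third gene of that list, was not highest in mouse 4 in any tissue.

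The PPARA targets of subfamily 4a followed another mouse. Cyp4a14 had 3.70, 5.32, 7.67 and 6.34 in neo-livers, 6.14, 6.37, 8.39 and 6.64 in host kidneys, 4.30, 6.45, 8.89 and 6.61 in host livers and 7.77, 7.42 and 7.37 in control livers. Cyp4a10 had 4.27, 5.28, 7.77 and 6.38 in neo-livers, 5.97, 6.06, 7.90 and 6.39 in host kidneys, 5.82, 7.20, 8.77 and 7.06 in host livers and 7.03, 7.10 and 6.79 in control livers. Mouse 3 was the highest in all 3 host tissues for both, and for Cyp4a31 and Cyp4a32, whose probes may share their signal. Mouse 1 was the lowest in each tissue for Cyp4a10 and Cyp4a14. Of the 4, 0 were called in any of the 5 comparisons without the block. With mouse number as a block neo-liver was lower than host liver for Cyp4a10, Cyp4a31 and Cyp4a32 (-1.29, -1.20 and -0.72, adjusted p = 0.00549, 0.00608 and 0.0402 by limma), and Cyp4a14 lower in neo-liver than in host kidney (-1.13, adjusted p = 0.0278).

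Genes for the partners of the P450 enzymes were also lower in neo-liver than in control liver. Of 13 genes for electron donors and haem synthesis, 8 stood higher in neo-liver than in host kidney (23.2% of all genes) and 13 of 13 were lower than in control liver (29.7% of all genes), with a median difference of -0.95. Por, the reductase gene, had 6.01, 7.04, 7.32 and 5.73 in neo-livers, 6.73, 7.62, 8.02 and 6.05 in host livers and 7.87, 7.86 and 7.69 in control livers, and mice 2 and 3 were the highest in both tissues. Its difference from control liver was -1.28 ± 0.44 (adjusted p = 0.0261 by limma). Alas1, the first step of haem synthesis, differed by -0.95 ± 0.33 from control liver, and Cyb5a, an electron donor to some P450 enzymes, by -0.44 ± 0.11. Among 14 tested regulators, neo-liver was higher than host kidney for 10 (23.2% of all genes) and lower than control liver for 7 (29.7% of all genes). Nr1i2, which encodes PXR, was lower than in control liver by a difference of -1.5 ± 0.27, Nr1i3, which encodes CAR, by -1.40 ± 0.37 and Cebpa by -1.81 ± 0.29, while Ahr differed by -0.02 ± 0.21. Nr1i2 had 1.21, 1.32, 1.99 and 1.30 and Nr1i3 2.19, 2.20, 2.62 and 2.47 in neo-livers, and the 4 values of each spanned under 0.8 log2 units. Ppara, the receptor gene of the 4a targets, had 4.93, 4.93, 4.75 and 5.02 in neo-livers and was not called against control liver (-0.41 ± 0.24).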

How the data were processed

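Cy3-labelled RNA was hybridised to 15 one-colour arrays, 1 for each sample. The intensity of each spot came from Agilent Feature Extraction 10.10.1.1, per the file headers, which had corrected its processed signal for background and for trends across the array. The authors also deposited log2 values. For 99.78% to 99.85% of probes these equalled log2 processed signal less a constant for the array, to within 0.01. Spots of a probe were averaged without outlier spots. For 123 probe and array values with outlier spots only, the plain mean was used.

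Here log2 signal minus each array's 75th percentile was analysed, for probes well above background on every array of at least 1 group. No member value was saturated. Of the members, 14 had over 1 kept probe, and for 8 of these the probes differed in sign in some comparison. Groups came from the sample labels, and 1 limma fit (limma 3.58.1 with statmod 1.5.0 in R 4.3.3) took all 15 arrays with a mean per group. The fit was tested on simulated data. The labels do not say that arrays of a group are separate animals, so p-values measure the spread between these samples. The number of arrays limits the precision.

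The members and lists were chosen with earlier results of these data known. Statistics were given, by rule, for called members with the 8 largest rises and 8 largest falls without overlap, for a set of lead members, and for up to 4 called genes of the P450-system lists, and some of these are left out. For the kidney share, the linear signal of each kidney marker in excess of the control livers was divided by the same excess in host kidney, and the median was taken over markers with an 8-fold or larger excess. For the normexp alternative, median spot signals were used with an offset of 50, since no mean spot signal is in the files.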

Additional observations from a re-analysis of the deposited data

Results flagged for a closer look

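Levels of 33 members in the 3 host tissues, 99 groups of 4 arrays, were examined for an array that stood far from the other 3, by Dixon's ratio of its gap to the whole range. Chance flags about 1 in 20 such groups, and 7 were found. Cyp1a1 was 5.11 in host liver 4, against -2.15 for the next array (ratio 0.924), and the neo-liver and host kidney of that number were also the highest of their tissues. Cyp2c70 was lowest in host liver 3, at 6.09, against 7.79 for the next (ratio 0.875), and Cyp4f40 was lowest there too, at -6.31, against -4.15 (ratio 0.907). Host kidney 2 was the highest of its group for Cyp2c29 (-2.04, next -2.92), Cyp3a44 (-5.24, next -7.69) and Cyp2j11 (3.96, next 3.77). On that array 31 of 36 liver members were above background. Cyp4f18 was highest in neo-liver 1, at -0.01, next to -0.56. The causes were not tested.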

How the results depend on the processing

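Counts of called members were recomputed under other settings, of which subtraction of the kidney share with rescaling was chosen after seeing the data. Of these counts 175 stayed within 1.5 times the reported one and 19 did not. For neo-liver against host liver, 20 members were lower as reported (31% of all genes). The count was 11 with quantile normalization (16.5% of all genes) and 31 with median centring (44.6% of all genes). With mouse number as a random replicate block 34 were lower, and as a fixed replicate block 32. With the kidney share subtracted 32 were lower, and 15 when the remainder was also rescaled. Subtraction without rescaling can only lower a neo-liver level. With that share subtracted, 15 in place of 8 were lower against host kidney, 3 in place of 8 were higher against control liver and 4 in place of 8 were higher against host liver, and with rescaling 4 and 5 of the last 2 counts. Each of these 4 counts of higher members includes Cyp2j11, which the subtraction left at the floor in 4 of 4 neo-livers. Higher members of host liver against control liver numbered 1 in place of 2 with normexp background correction and with a fit of those groups alone.

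Without 1 array at a time, neo-liver against host kidney gave 44 to 45 higher and 7 to 8 lower members, neo-liver against control liver 7 to 8 and 22 to 29, neo-liver against host liver 7 to 9 and 18 to 23, host liver against host kidney 45 and 10, and host liver against control liver 1 to 2 and 4 to 8. The last count of 8 was without host liver 2, and 1 member was higher without host liver 2, 3 or 4 or any control liver. Single members were followed in a comparison where called as reported, or where a lead member differed by at least 1 log2 unit. These gave 3795 values with the same call, 187 no longer called, 26 newly called and 3 of opposite sign. Most members not called as reported were not followed, so the 26 leave out most new calls in the counts above. Those 3 were not called under the settings that turned them: Cyp4b1-ps2 in neo-liver against control liver with the kidney share subtracted (-0.18), Cyp1a1 in the same comparison without neo-liver 4 (-0.92, and up to 2.18 without another array), and Cyp2c55 in neo-liver against host liver without host liver 3 (0.14, and down to -2.82 without another array). The causes were not tested. As a fixed block among the host tissues, mouse number changed the call of Cyp4a14 in neo-liver against host kidney and otherwise only calls of neo-liver against host liver. Residual correlation was 0.3474 within mouse numbers and 0.0371 within slides. Genes below background in 1 group have only bounds, and members dim in both groups no fold.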

Other observations

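Genes outside the members, chosen after their values were seen, showed similar orders of mice. Gstm3, a glutathione transferase, had 4.95, 7.52, 8.06 and 5.5 in neo-livers 1 to 4 and 4.69, 8.60, 8.88 and 6.28 in host livers 1 to 4, against 6.23, 6.36 and 6.42 in control livers, with mice 2 and 3 highest as for Cyp2b10. Host kidneys were even, at 2.68, 2.63, 2.61 and 2.58. Akr1b7, an aldose reductase family member, had 0.83, 1.71, 3.57 and -0.77 in neo-livers and -1.04, 2.18, 3.05 and 1.19 in host livers, and the control livers, at -3.08, -2.95 and -3.13, were lower than all of these. Gadd45b, a stress-response gene, had 0.72, 2.02, 3.73 and 0.93 in neo-livers and 1.17, 3.10, 5.24 and 2.30 in host livers, again with mouse 3 the highest.

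Acot1, a fatty acyl-CoA thioesterase and PPARA target, had 2.31, 3.36, 6.24 and 4.69 in neo-livers, 5.12, 4.42, 6.51 and 5.21 in host kidneys and 2.77, 4.66, 7.07 and 5.21 in host livers, with mouse 3 the highest in each tissue as for Cyp4a14. Vnn1, another PPARA target, had 0.82, 1.24, 4.22 and 3.19 in neo-livers, 1.76, 1.55, 4.68 and 2.13 in host kidneys, 1.60, 0.43, 4.79 and 3.59 in host livers and -1.76, -2.64 and -2.14 in control livers. Cyp1a2, the hepatic AHR target, had 3.03, 4.66, 5.09 and 6.91 in neo-livers and 4.06, 6.05, 6.55 and 8.03 in host livers, against 5.35, 5.29 and 4.42 in control livers. Mouse 4 was the highest in both tissues, as for Cyp1a1, and mouse 1 the lowest. These values are given as descriptions, and no test was made of them.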
